A study of Mus musculus with 10 samples.

Results

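The genes described here are 8 that encode secreted cytokines: Ifng, Il2, Il21, Il10, Il16, Il3, Csf2 and Csf1. They were taken by name, 8 of the 54408 genes to which the deposited transcripts were assigned, with earlier results of these data known. The RNA came from P14 CD8 T cells, which carry a transgenic T cell receptor for the gp33 peptide, after they had entered tumours of B16-gp33, a mouse melanoma line made to express that peptide. The T cells, of C57BL/6 origin, were activated in culture for 48 h and given to mice with subcutaneous tumours, from which the sort for CD8 T cells took place 7 days later. The 5 NFAT5 KO libraries (679_2, 679_6, 678_3, 678_5 and 678_6) held cells with both Nfat5 alleles floxed and 1 copy of a Cre transgene under the Cd4 promoter. The 5 WT libraries (679_3, 679_4, 679_5, 678_2 and 678_4) held cells with the same floxed alleles and no Cre, so the WT cells are floxed cells too, and both groups carry the P14 receptor. Cre under the Cd4 promoter acts from the thymus on in all T cells, and the labels name no genotype for the mice that received the cells. The labels do not state whether libraries come from separate mice, so each p-value is set against the scatter among libraries, which may be technical in part. They also do not say what the first number of a library name (678 or 679) stands for, and it is called the label prefix.

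Interferon gamma (Ifng) is the main cytokine by which CD8 T cells act on macrophages and tumour cells, and it raises antigen presentation. Interleukin 2 (Il2) drives T cell growth and is made mainly in the first hours after receptor engagement, while exhausted CD8 T cells lose its production early. Transcription of Ifng, Il2, Il3 and Csf2 needs calcium-dependent NFAT proteins, which bind a GGAAA core together with AP-1. NFAT5, the factor targeted here, reads a related core but does not depend on calcineurin, and it is best known for the response to high salt. Messenger RNAs of several cytokines are also short-lived, because proteins such as ZFP36 bind AUUUA repeats in their 3′ untranslated regions (UTRs).

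Among the annotated 3′ UTRs of the 8 genes, those of Ifng, Il2 and Csf2 hold the most tightly clustered AUUUA repeats. The 30 bases of each with the most are shown because the levels of RNA-binding proteins that read such repeats are given further on. The sequences are read from the GENCODE M21 transcripts (GRCm38) in the direction of the gene, with ATTTA in capitals, and all lie in the last exon. They are chr10:118445335-118445364 (plus strand), chr3:37121038-37121067 (minus strand) and chr11:54247320-54247349 (minus strand).
Ifng 3′ UTR: ATTTAttaatATTTAaaactATTTAtatgg
Il2 3′ UTR: ATTTATTTAaatATTTAactttaATTTAtt
Csf2 3′ UTR: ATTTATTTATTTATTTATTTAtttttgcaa
Csf2 had 9 overlapping or separate ATTTA matches in a 3′ UTR of 317 bases, a density of 28.39 per kb, and 5 of them fell within 30 bases. Of 10251 tested genes with an annotated 3′ UTR, 0.0683% had as many within 30 bases. Il2 had 7 in 581 bases, with 4 within 30 bases, a number reached by 0.234% of those genes. Ifng had 6 in 631 bases, with 3 within 30 bases, reached by 1.51% of the genes. Il10 had 6 in 706 bases, spread so that no 30 bases held more than 1. Il3 had 1 in an annotated 3′ UTR of only 101 bases, and sequence past the annotated end was not searched. Csf1 had 4 in the 2111 bases of its most abundant transcript, 1.90 per kb against a median of 1.01 per kb over the tested genes. The UTR of the main Il16 transcript (1041 bases) held none, and 59.6% of the tested genes held at least 1. For Il21 the transcript with the most TPM has an annotated UTR of only 40 bases and held none, and that with the most counts, Il21-201, had 9 in 2578 bases with at most 2 within 30 bases.

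The promoter windows of Ifng (chr10:118440796-118441095, plus strand) and Il2 (chr3:37125905-37126204, minus strand) are shown because NFAT proteins are known to act at both genes. They run from 250 bases before to 50 after the start of the gene, come from RefSeq for GRCm38.p6, and have GGAAA, or TTTCC where the core lies on the other strand, in capitals.
Ifng promoter: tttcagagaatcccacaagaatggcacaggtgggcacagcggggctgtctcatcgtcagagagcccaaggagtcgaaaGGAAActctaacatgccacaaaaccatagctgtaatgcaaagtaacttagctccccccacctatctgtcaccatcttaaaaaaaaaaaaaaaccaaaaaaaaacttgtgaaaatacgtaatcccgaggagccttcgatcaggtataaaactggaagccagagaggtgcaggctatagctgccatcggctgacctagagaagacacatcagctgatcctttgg
Il2 promoter: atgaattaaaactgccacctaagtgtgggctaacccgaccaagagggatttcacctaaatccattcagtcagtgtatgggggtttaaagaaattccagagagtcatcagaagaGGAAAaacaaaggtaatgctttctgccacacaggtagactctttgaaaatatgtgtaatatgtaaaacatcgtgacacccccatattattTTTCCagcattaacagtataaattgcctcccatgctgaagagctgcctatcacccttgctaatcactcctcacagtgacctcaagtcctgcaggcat
RefSeq gave 9 windows for 7 of the genes, Il10 having no entry. The Csf2 window (chr11:54249850-54250149, minus strand) lies wholly before the GENCODE start of that gene, at 54249667, and does not cover it. GGAAA was searched on both strands and occurred once in Ifng and in Il3, at 2 places in Il2, and at 3 places in Csf2, Csf1 and Il21. The 3 windows of Il16 had 1, 1 and 3. Of 32851 promoter windows of the same length, 61.3% had at least 1 match, 26.7% at least 2 and 9.42% at least 3. The longer TGGAAA, which contains GGAAA, was present in Il2, Il21, Csf2, Il3 and 1 window of Il16, and in 21.4% of all promoters. The consensus of the tonicity-responsive element, the site described for NFAT5, matched only the Il21 window among these 9, against 4.96% of all promoters. TGANTCA, the AP-1 site, matched 1 window of Il16, against 7.81% of all promoters. A match is a run of letters and was not tested as a binding site.

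The libraries held 22444310 to 32001285 estimated counts. Of 13081 genes that passed the low-count filter, 1179 (9.01%) differed between NFAT5 KO and WT at an adjusted p below 0.05, 442 higher (3.38%) and 737 lower (5.63%). Nfat5 itself stood at 11.56 to 26.75 CPM in NFAT5 KO and 9.20 to 18.28 CPM in WT (log2 fold change -0.04, SE 0.27). CPM is the estimated count of a gene scaled to a common library total. A count per gene does not separate the floxed part of Nfat5 from the rest, so it does not check the genotype labels. The T cell markers Cd3d, Cd3e, Cd3g, Cd8a, Cd8b1 and Trac summed to 7158 to 7614 CPM in NFAT5 KO and 6760 to 7688 CPM in WT, and Cd4 reached at most 2.42 CPM in any library. Of these 6 T cell markers 1, Trac, was higher in NFAT5 KO past the threshold, and 5 did not pass. Trac averaged 1488 CPM in NFAT5 KO and 1053 CPM in WT (log2 fold change 0.50, edgeR adjusted p = 0.00937). The sums of some other marker lists differed more between the genotypes. The 10 macrophage and monocyte markers summed to 35.89 to 74.8 CPM in NFAT5 KO and 69.52 to 138 CPM in WT, and the 8 cell cycle genes to 289.7 to 480.2 CPM in NFAT5 KO and 1093 to 1808 CPM in WT. The 5 B cell markers summed to 231.6 to 293.9 CPM in NFAT5 KO and 278.7 to 654.4 CPM in WT, nearly all of it Ighm, while Cd79a was at 0 in every NFAT5 KO library. The 6 dendritic cell markers summed to 18.22 to 41.57 CPM in NFAT5 KO and 23.23 to 33.54 CPM in WT. The 4 NK cell, 6 mast cell and basophil, 4 neutrophil and 7 melanoma markers each summed to less than 10 CPM in every library, with Ncr1, Mcpt4, Mcpt8, Fcer1a, S100a9 and Sox10 at 0 in all of them. The 6 fibroblast and endothelial markers summed to 35.27 to 50.42 CPM in NFAT5 KO and 39.72 to 69.39 CPM in WT. Nearly all of that sum was Pecam1 (35.27 to 50.42 CPM in NFAT5 KO and 39.72 to 68.31 CPM in WT), with Col1a2 and Cdh5 at 0 throughout. The 4 markers of CD4 and regulatory T cells summed to 31.64 to 51.7 CPM in NFAT5 KO and 14.19 to 30.55 CPM in WT. Only Ccr8 among them was higher in NFAT5 KO past the threshold (36.0 CPM, against 11.9 CPM in WT), while Ikzf2 averaged 5.36 CPM in NFAT5 KO and 8.93 CPM in WT and Foxp3 0.195 CPM in NFAT5 KO and 0.684 CPM in WT. The part of these cells in the values below was not tested, and in bulk RNA fewer cells of a type and less RNA per cell cannot be told apart.

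Ifng was by far the most abundant of the 8 genes in both genotypes. None of the 7 genes that could be tested passed the threshold, against 9.01% of all tested genes. The count was 0 of 7 with the edgeR quasi-likelihood test, which also gave 0 at an unadjusted p below 0.05, where 23.2% of all genes stood. DESeq2, which called 14.5% of all genes, gave 0, and before adjustment also 0, where 25.1% of all genes were below 0.05. The limma-voom fit called 11.8% of all genes and none of the 7, and before adjustment it had 1 of them, Csf1, below 0.05, with 26.5% of all genes. Il21 did not pass the low-count filter and had no result in the fit over all 10 libraries. The CPM values of NFAT5 KO and WT libraries overlapped for all 8 genes, and they did not overlap for 10.3% of the tested genes. Among so few genes, counts of 0 lie near the shares of 9.01% and 10.3%. Il2, Il3, Il10 and Csf2 were measured with low precision. Only 12.4%, 8.06%, 1.2% and 13.0% of the tested genes, in that order, had a larger SE. The median log2 fold change of the 7 tested genes was -0.16, beside 0.02 over all tested genes. What each gene's data allow differs, and the interval of each difference is therefore given with it.

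**Figure D1:**
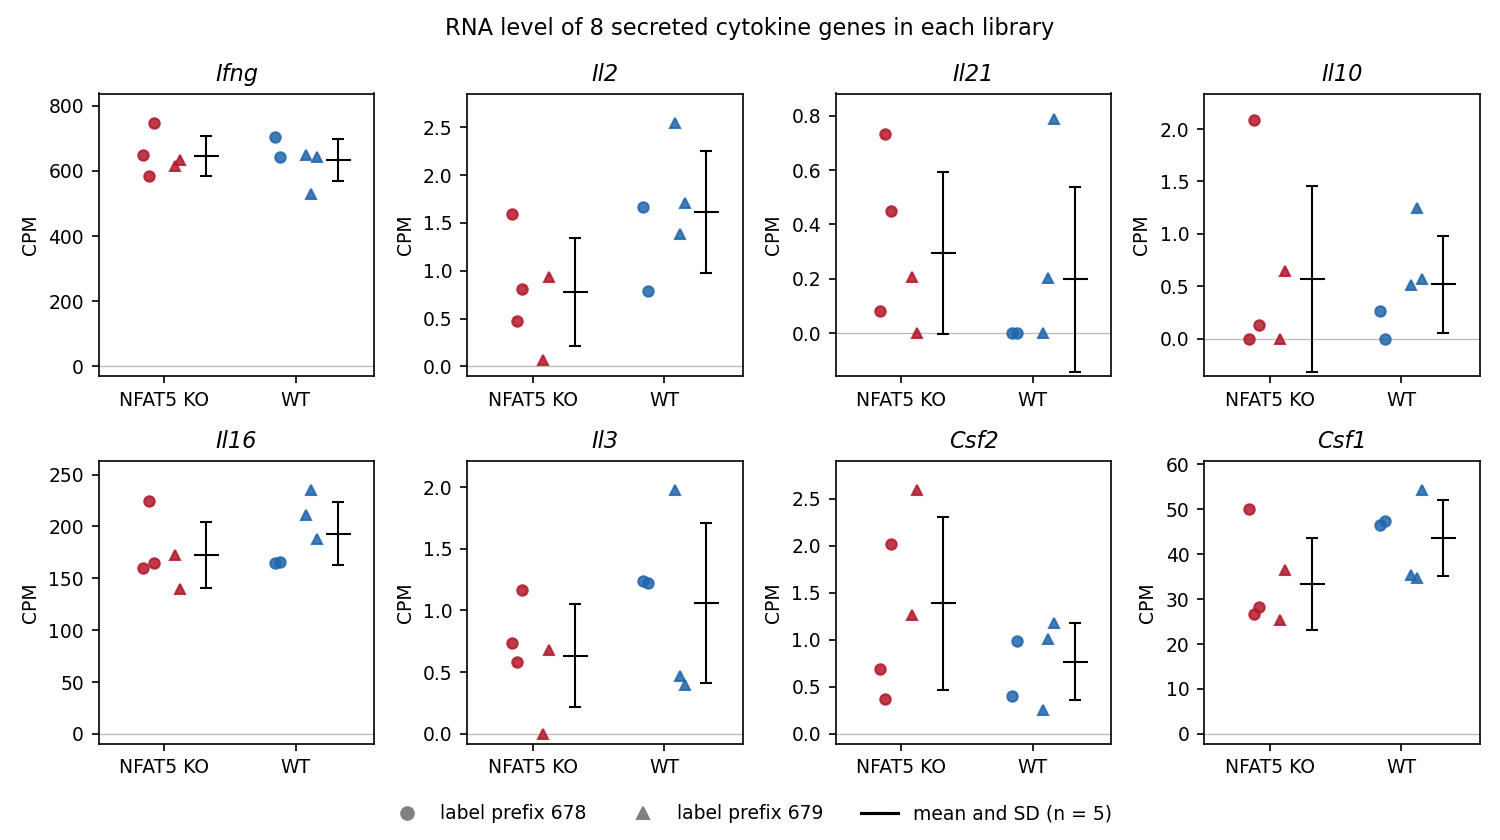
CPM of the 8 cytokine genes in the 5 NFAT5 KO libraries (red, left) and the 5 WT libraries (blue, right), with circles for label prefix 678 and triangles for 679. Black bars give the mean and SD (n = 5), each panel has its own linear axis, and the libraries of the groups overlap in every panel. Ifng stands between 528.5 and 747.4 CPM, while Il2, Il21, Il10, Il3 and Csf2 stay below 3 CPM in every library.

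Ifng (ENSMUSG00000055170, GRCm38 chr10:118441046-118445892, plus strand) had a level in NFAT5 KO of 647.3 CPM in library 678_3, 585.1 CPM in 678_5, 747.4 CPM in 678_6, 615.1 CPM in 679_2 and 634.2 CPM in 679_6. The level in WT was 703.1 CPM in library 678_2, 642.4 CPM in 678_4, 648.9 CPM in 679_3, 528.5 CPM in 679_4 and 642.5 CPM in 679_5. The highest library was NFAT5 KO and the lowest WT, and the other 8 libraries lay between 585.1 and 703.1 CPM. The means were 646 ± 61.4 CPM in NFAT5 KO and 633 ± 63.8 CPM in WT (SD, n = 5 each), and the log2 fold change was 0.03 with an SE of 0.09 (edgeR adjusted p = 0.891). The 95% interval ran from -0.17 to 0.22, or from 0.891-fold to 1.17-fold of WT. Its SE was smaller than that of 94.2% of the tested genes. Within label prefix 678 the log2 fold change was -0.03 (SE 0.14), and within prefix 679 it was 0.04 (SE 0.12).

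On the scale that corrects for transcript length and library total (TPM), Ifng averaged 871 ± 63.9 in NFAT5 KO and 847 ± 102 in WT (SD, n = 5 each). It ranked between 166 and 259 by TPM among all genes of a library and made up 87.5% to 92.7% of the summed TPM of the 8 genes. The file assigned Ifng RNA to 2 transcripts. Ifng-201, the coding transcript of 1208 bases and 4 exons that encodes 155 residues, took 93.6% of the gene's estimated counts and 72.4% of its TPM on average. The rest went to Ifng-202, an annotated retained-intron transcript of 378 bases. The share of TPM in Ifng-201 was 72.3% ± 1.23 in NFAT5 KO and 72.4% ± 1.95 in WT (SD, n = 5 each; two-sided exact permutation test, p = 0.960, also 0.960 after adjustment over the 3 genes tested).

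Il2 and Il21, which encode cytokines that signal through receptors sharing the common gamma chain, had few counts. Il2 (ENSMUSG00000027720, chr3:37120523-37125959, minus strand) had 39, 13, 18, 2 and 29 estimated counts in the NFAT5 KO libraries and 50, 23, 80, 41 and 39 in the WT libraries, in the order used for Ifng. On the CPM scale it reached 1.589, 0.4761, 0.8068, 0.0685 and 0.9386 in NFAT5 KO and 1.668, 0.7834, 2.548, 1.382 and 1.708 in WT. Of the 5 WT libraries 4 lay above 1 CPM, and of the 5 NFAT5 KO libraries 4 lay below it, yet 3 NFAT5 KO libraries exceeded the lowest WT library. The means were 0.776 ± 0.565 CPM in NFAT5 KO and 1.62 ± 0.638 CPM in WT (SD, n = 5 each), with a log2 fold change of -1.06, an SE of 0.66 and an adjusted p of 0.369 in edgeR. The 95% interval, -2.49 to 0.37, holds both a loss of most of the Il2 RNA and no change. The value was -0.36 within label prefix 678 and -1.89 within prefix 679.

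Il21 (ENSMUSG00000027718, chr3:37222759-37232636, minus strand) lies 96799 bases from Il2 on the same strand, with no protein-coding gene between. IL-21 is mainly a product of CD4 T cells and sustains CD8 T cells in chronic infection. It had 2, 20, 10, 6 and 0 estimated counts in the NFAT5 KO libraries and 0, 0, 0, 6 and 18 in the WT libraries. The counts were thus 0 in 1 NFAT5 KO library and in 3 WT libraries, where 3 counts correspond to 0.0937 to 0.102 CPM. Summed, NFAT5 KO libraries held 38 counts or 0.283 CPM (exact Poisson 95% interval 0.200 to 0.389) and WT libraries 24 counts or 0.168 CPM (0.107 to 0.249), intervals that cover counting error only. Per library the means were 0.294 ± 0.298 CPM in NFAT5 KO and 0.198 ± 0.341 CPM in WT (SD, n = 5 each; two-sided exact permutation test, p = 0.619). The edgeR fits that held Il21 gave it an adjusted p of 0.871 with no filter and 0.396 within label prefix 678, where both WT libraries were at 0 and the p before adjustment was 0.0286.

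Il10 and Il16 encode an immunosuppressive cytokine and a chemoattractant for CD4-bearing cells. Il10 (ENSMUSG00000016529, chr1:131019845-131024974, plus strand) had 0, 57, 3, 0 and 20 estimated counts in the NFAT5 KO libraries and 8, 0, 16, 37 and 13 in the WT libraries. Library 678_5 gave 57 of the 80 counts in NFAT5 KO, and 2 NFAT5 KO libraries and 1 WT library were at 0. The means were 0.574 ± 0.887 CPM in NFAT5 KO and 0.519 ± 0.465 CPM in WT (SD, n = 5 each). The log2 fold change of 0.15 (SE 1.27, adjusted p = 0.960) had a 95% interval of -2.59 to 2.90, the widest of the 7 tested genes, and DESeq2 gave it no adjusted p.

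Il16 (ENSMUSG00000001741, chr7:83642825-83745726, minus strand) was the second most abundant of the 8 genes. IL-16 is made as a long precursor whose C-terminal part is cut off and secreted, and lymphocytes hold the precursor without stimulation. It stood at 160, 224.6, 164.8, 172.1 and 140 CPM in the NFAT5 KO libraries and at 164.9, 166.1, 211, 234.9 and 188.3 CPM in the WT libraries. Of the NFAT5 KO libraries 4 lay between 140 and 172.1 CPM, and library 678_5 lay above all WT libraries but 679_4. The means were 172 ± 31.6 CPM in NFAT5 KO and 193 ± 30.1 CPM in WT (SD, n = 5 each), with a log2 fold change of -0.16 (SE 0.14, 95% interval -0.46 to 0.13, adjusted p = 0.510). The sign differed between label prefixes, 0.14 (SE 0.18) within 678 and -0.45 (SE 0.15, adjusted p = 0.225) within 679. The interaction of genotype with prefix had an unadjusted p of 0.0368 and an adjusted p of 1 over all genes in edgeR.

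Nearly all Il16 RNA was assigned to Il16-203, a transcript of 3183 bases that encodes 624 residues. It took 97.4% ± 1.38 of the TPM of the gene in NFAT5 KO and 98.1% ± 0.906 in WT (SD, n = 5 each; exact permutation test, p = 0.397, adjusted p = 0.595). Il16-201, of 5260 bases and 1322 residues, corresponds to the long form known from neurons and had 15.01 to 101.6 estimated counts in NFAT5 KO and 9.583 to 106.2 in WT, 0.558% of the gene's TPM on average.

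The remaining 3 genes encode growth factors of blood cells. Il3 and Csf2, which encodes GM-CSF, lie 15635 bases apart on the minus strand of chromosome 11 with no annotated gene between, and are known to be co-induced in activated T cells from this shared locus. Il3 (ENSMUSG00000018914, chr11:54265303-54267277) stood at 0.7334, 0.586, 1.165, 0 and 0.6797 CPM in the NFAT5 KO libraries and at 1.235, 1.226, 1.974, 0.472 and 0.3941 CPM in the WT libraries. The 3 highest libraries were WT and the library at 0 was NFAT5 KO 679_2, which also had the fewest Il2 counts. The means were 0.633 ± 0.418 CPM in NFAT5 KO and 1.060 ± 0.649 CPM in WT (SD, n = 5 each), and the log2 fold change was -0.75 (SE 0.83, 95% interval -2.54 to 1.04, adjusted p = 0.639).

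Csf2 (ENSMUSG00000018916, chr11:54247271-54249667) had the largest positive log2 fold change of the 7 tested genes. It stood at 0.6926, 0.3663, 2.017, 1.267 and 2.589 CPM in the NFAT5 KO libraries and at 0.4004, 0.9878, 0.2548, 1.011 and 1.182 CPM in the WT libraries. The 3 highest libraries were NFAT5 KO and the lowest was WT, with the others interleaved. The means were 1.39 ± 0.919 CPM in NFAT5 KO and 0.767 ± 0.412 CPM in WT (SD, n = 5 each), and the log2 fold change was 0.85 (SE 0.64, 95% interval -0.54 to 2.24, adjusted p = 0.464). In total 189 estimated counts were seen in NFAT5 KO and 106 in WT, and without library NFAT5 KO 679_6 the log2 fold change was 0.48. The neighbours Il3 and Csf2 therefore had estimates of opposite sign, each with a 95% interval that includes 0.

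Csf1 (ENSMUSG00000014599, chr3:107741048-107760469, minus strand) encodes M-CSF, the growth and survival factor of macrophages. It stood at 50.11, 26.66, 28.28, 25.45 and 36.51 CPM in the NFAT5 KO libraries and at 46.38, 47.42, 35.41, 34.66 and 54.21 CPM in the WT libraries. The 3 lowest libraries were NFAT5 KO, and NFAT5 KO 678_3 was the second highest of all 10. The means were 33.4 ± 10.3 CPM in NFAT5 KO and 43.6 ± 8.396 CPM in WT (SD, n = 5 each). The log2 fold change was -0.38 (SE 0.20, 95% interval -0.82 to 0.05), with an unadjusted p of 0.0802 and an adjusted p of 0.280 in edgeR. It was -0.42 within each label prefix, and -0.60 with an adjusted p of 0.0557 without NFAT5 KO 678_3, the closest that any of the 8 genes came to the threshold in any alternative fit.

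**Figure D2:**
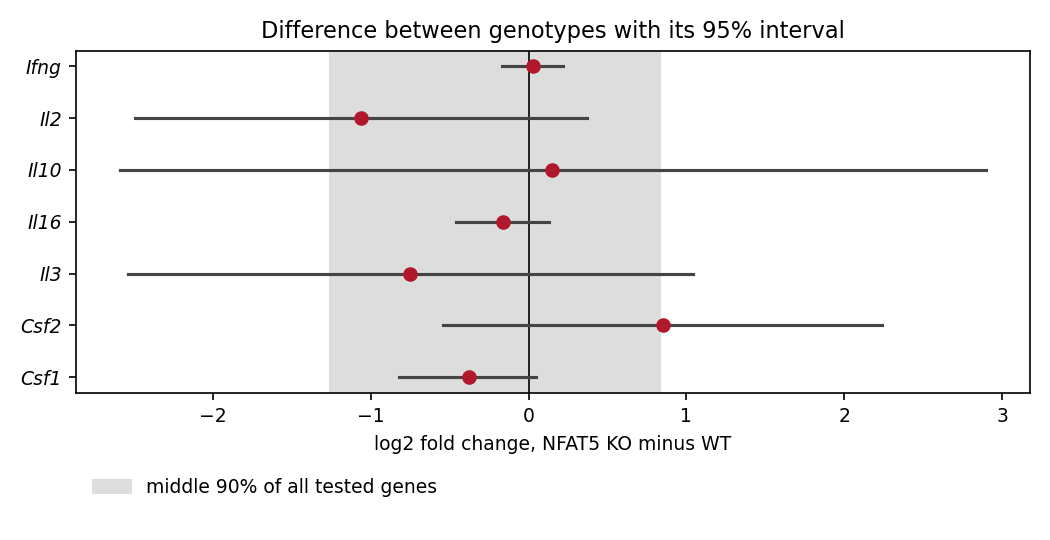
Log2 fold change, NFAT5 KO minus WT, of the 7 tested cytokine genes (red points) with the 95% interval (grey lines), over the range that holds the middle 90% of all tested genes (grey band, -1.26 to 0.83). The interval of Ifng is the narrowest (-0.17 to 0.22) and that of Il10 the widest (-2.59 to 2.90), and every interval includes 0.

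The part of macrophages, which need M-CSF, in the values of Csf1 was not tested. Csf1r, the receptor of M-CSF, stood at 0.407 to 3.29 CPM in NFAT5 KO and 1.20 to 5.16 CPM in WT (log2 fold change -1.06, adjusted p = 0.353). Of the 8 tested macrophage markers 1, Adgre1, passed the threshold, lower in NFAT5 KO, and 7 did not. The median log2 fold change of the 8 was -1.78. C1qa, C1qb, C1qc, Lyz2 and Cd68 had log2 fold changes of -2.07, -2.31, -1.88, -1.67 and -0.33. Only Itgam had the opposite sign (13.3 ± 4.55 CPM in NFAT5 KO and 11.1 ± 5.73 CPM in WT, log2 fold change 0.27). Mrc1, which was not tested, averaged 0.590 CPM in NFAT5 KO and 0.621 CPM in WT.

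Csf1 RNA was spread over several coding transcripts. Csf1-201 (4176 bases) and Csf1-203 (2097 bases) both encode 552 residues, and they held 47.1% and 28.1% of the gene's TPM on average. Csf1-205 (773 bases, 181 residues) held 13.3% and Csf1-202 (257 residues) 8.69%. By TPM, the share in Csf1-201 was 43.0% ± 7.39 in NFAT5 KO and 51.3% ± 13.1 in WT (SD, n = 5 each), a difference of -8.30 percentage points that did not pass (two-sided exact permutation test, p = 0.254, adjusted p = 0.595). It was -3.84 points without WT 678_2, -5.19 without NFAT5 KO 679_6, -12.85 without WT 679_5 (exact permutation test, adjusted p = 0.0952), and -4.48 by estimated counts. Salmon divides reads among overlapping transcripts by a model, so these shares are less certain than the sums per gene.

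**Figure D3:**
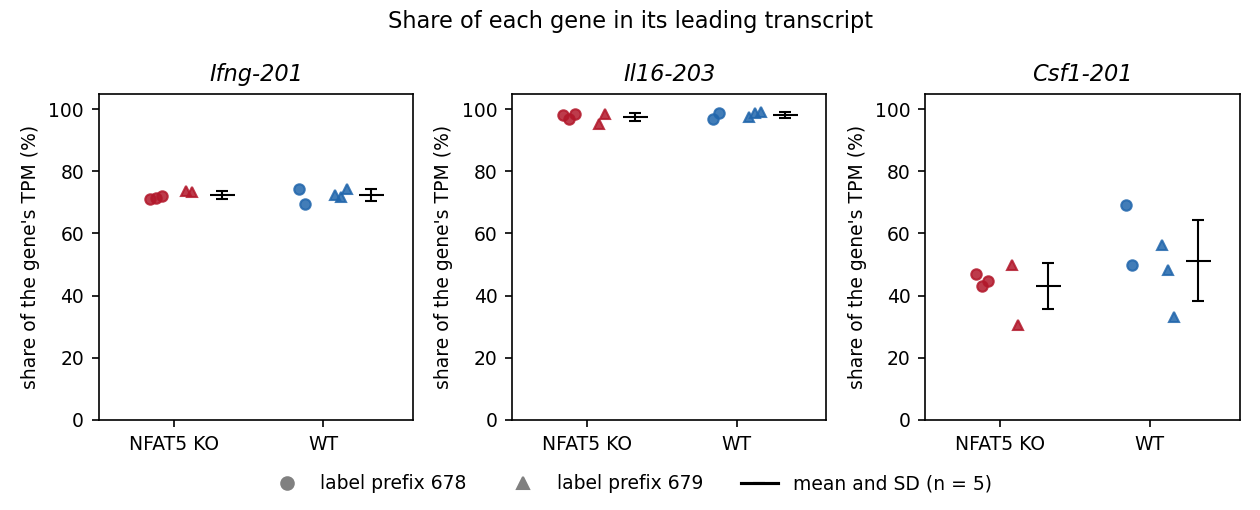
Share of a gene's TPM in its most abundant transcript, in percent, in 5 NFAT5 KO libraries (red, left) and 5 WT libraries (blue, right) for Ifng-201, Il16-203 and Csf1-201. Black bars give the mean and SD (n = 5). For Ifng-201, and likewise for Il16-203, the libraries stay within a few percentage points of one another. Shares of Csf1-201 run from 30.5% to 49.7% in NFAT5 KO and from 33.1% to 69.1% in WT.

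By mean TPM over all 10 libraries the order was Ifng (858.5), Il16 (62.64), Csf1 (15.05), Il3 (2.06), Csf2 (1.95), Il2 (1.67), Il10 (0.486) and Il21 (0.196). The first 3 steps, down to Il3, held in 10 of 10 libraries. Il3 exceeded Csf2 in 5 of 10 libraries and Csf2 exceeded Il2 in 4 of 10, so these 3 genes have no order beyond their spread. Il2 exceeded Il10 in 9 of 10 libraries, and Il10 exceeded Il21 in 6 of 10.

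The pathway around these genes was read from 6 lists. In 5 of them, all but the interferon gamma responsive genes, more genes rose than fell in NFAT5 KO under each scaling tried. Of all tested genes 3.38% rose and 5.63% fell. The lists were chosen with earlier results of these data known, so this balance is a description and not a test. In the list of other cytokines it rests on 1 gene of 10 tested. Of the receptors, 11 of 14 were tested, 3 rose and 1 fell, with a median log2 fold change of 0.13. With no filter on low counts 3 rose and 2 fell. Ifngr1, the ligand-binding chain of the interferon gamma receptor, rose to 895 ± 227 CPM in NFAT5 KO, against 466.1 ± 91.1 CPM in WT (log2 fold change 0.94, SE 0.17, adjusted p = 0.00391). Its partner Ifngr2 was at 0 to 1.71 CPM in NFAT5 KO and 0 to 1.602 CPM in WT. Il2rg, the common gamma chain, rose to 1864 ± 112 CPM in NFAT5 KO, against 1314 ± 184 CPM in WT (0.50, SE 0.09, adjusted p = 0.00458). The other 2 chains of the IL-2 receptor, Il2ra and Il2rb, had log2 fold changes of 0.13 and 0.17 and did not pass. Il21r, which pairs with the gamma chain to bind IL-21, rose to 382 ± 66.5 CPM in NFAT5 KO, against 247 ± 37.1 CPM in WT (0.63, SE 0.13, adjusted p = 0.01). Il3ra, the IL-3 receptor alpha chain, fell to 4.59 ± 0.694 CPM in NFAT5 KO, against 9.26 ± 2.58 CPM in WT (-1.01, SE 0.24, adjusted p = 0.0216), and without WT 679_3 its adjusted p was 0.0563. Csf2rb is the beta chain for IL-3 and GM-CSF, and Csf2rb2 a beta chain for IL-3. Both were at 0 in all 5 NFAT5 KO libraries, where 3 counts correspond to 0.0937 to 0.132 CPM. In WT they ran from 0 to 4.55 CPM (Csf2rb) and from 0 to 2.04 CPM (Csf2rb2). Neither beta chain gene passed the low-count filter, so the main fit gave no result for them. Their WT means were 1.10 ± 1.95 and 0.712 ± 0.843 CPM (SD, n = 5). These receptors are also found on macrophages, of whose 8 tested markers 1 passed, and the part of such cells was not tested.

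Of 28 other cytokine genes, 10 were tested, and 1 rose and 0 fell, with a median of 0.09. Ltb, which encodes lymphotoxin beta, rose to 758 ± 56.5 CPM in NFAT5 KO, against 551 ± 46.1 CPM in WT (log2 fold change 0.46, SE 0.08, adjusted p = 0.00362). Tnf stood at 47.3 ± 6.21 CPM in NFAT5 KO and 40.1 ± 5.87 CPM in WT (0.24, adjusted p = 0.315). Il4, Il5, Il6, Il9, Il13, Il17a, Il22, Il24, Il12a, Il34, Csf3 and Kitl had 0 counts in all 10 libraries.

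Among transcription factors known to act at cytokine genes, 26 of 27 were tested, 8 rose and 0 fell, with a median log2 fold change of 0.40. Tbx21, which encodes T-bet, the factor that opens Ifng, rose to 256 ± 33.0 CPM in NFAT5 KO, against 174 ± 20.99 CPM in WT (0.56, SE 0.11, adjusted p = 0.00735). The 3 EGR factors of the list, which are induced by receptor signals, rose: Egr1 by 0.68 (adjusted p = 0.0108), Egr2 by 0.90 (adjusted p = 0.0220) and Egr3 by 1.28 (adjusted p = 0.0361). The AP-1 subunit Fosb rose by 1.04 (adjusted p = 0.0234) and Nfkb1, an NF-kB subunit, by 0.79 (adjusted p = 0.0288). The calcium-dependent factors Nfatc1, Nfatc2 and Nfatc3 had log2 fold changes of -0.17, 0.16 and 0.39 and did not pass. Between 2 and 8 of these factors passed when any 1 library was left out. The count was 2 without NFAT5 KO 678_6 or WT 678_2, 3 without NFAT5 KO 679_2 or WT 679_3, and 5 without NFAT5 KO 678_3, NFAT5 KO 679_6 or WT 679_4. Tbx21 and Egr1 passed in all 10 such fits, Fosb and Egr2 in 6 each, Nfkb1 in 4 and Egr3 in 3.

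All 10 regulators of cytokine mRNA decay were tested, 3 rose and 0 fell, with a median of 0.43. Zfp36, whose protein binds AUUUA repeats such as those printed for Csf2, Il2 and Ifng, rose to 421 ± 48.8 CPM in NFAT5 KO, against 241 ± 54.1 CPM in WT (log2 fold change 0.80, SE 0.14, adjusted p = 0.00401). Its relative Zfp36l2 rose to 494 ± 100 CPM in NFAT5 KO, against 323 ± 46.8 CPM in WT (0.61, SE 0.14, adjusted p = 0.0155). Zc3h12a, which encodes the RNA-cutting enzyme Regnase-1, rose by 1.01 (SE 0.28, adjusted p = 0.0441) and passed in only 3 of the 10 fits without 1 library. The list had 1 to 4 genes past the threshold in those fits. It had 1 without WT 678_2, and 2 without NFAT5 KO 679_2, NFAT5 KO 679_6, WT 678_4, WT 679_3 or WT 679_4.

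All 21 genes known to respond to interferon gamma were tested. With the TMM scaling 4 rose and 2 fell, with a median log2 fold change of 0.15, with library size alone 2 rose and 3 fell, and with the label prefix as a block or an offset for transcript length 2 rose and 2 fell. Irf1, a transcription factor induced by interferon, rose to 865 ± 190 CPM in NFAT5 KO, against 531 ± 79.1 CPM in WT (log2 fold change 0.70, SE 0.15, adjusted p = 0.0103). Cd274, which encodes PD-L1, rose by 0.86 (adjusted p = 0.0043), Socs1, an inhibitor of the pathway, by 0.46 (adjusted p = 0.0346) and Gbp2, a guanylate-binding protein, by 0.40 (adjusted p = 0.0389). Iigp1, an immunity-related GTPase, fell to 10.6 ± 3.42 CPM in NFAT5 KO, against 28.8 ± 5.08 CPM in WT (-1.44, SE 0.22, adjusted p = 0.00182). Psmb9, an immunoproteasome subunit, fell by 0.52 (adjusted p = 0.00819). Socs1 and Gbp2 did not pass with the prefix as a block (adjusted p = 0.0565 and 0.0588), with library size alone or with the length offset, and with any 1 library left out Socs1 passed in 1 fit of 10 and Gbp2 in 3. In those fits 2 to 6 of these genes rose and 2 or 3 fell. There were 2 of each without NFAT5 KO 678_6, 679_2 or 679_6 and without WT 678_2, 679_3, 679_4 or 679_5.

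Of 11 genes of the early response to T cell receptor signals, all were tested, 6 rose and 0 fell, with a median of 0.61. Cd69, which holds T cells in tissue, rose to 418 ± 115 CPM in NFAT5 KO, against 167 ± 42.6 CPM in WT (1.33, SE 0.21, adjusted p = 0.00184). Tnfaip3, an inhibitor of NF-kB, rose by 0.84 (adjusted p = 0.00203) and the nuclear receptor Nr4a1 by 0.82 (adjusted p = 0.0201). Tnfrsf9, which encodes the costimulatory receptor 4-1BB, rose by 0.68 (adjusted p = 0.0266). Myc, a driver of cell growth, rose by 0.64 (adjusted p = 0.0312), and Nfkbia, which encodes an NF-kB inhibitor, by 0.43 (adjusted p = 0.0463). Leaving out 1 library gave 2 to 8 such genes. It gave 2 without WT 678_2 or WT 679_3, 3 without NFAT5 KO 679_2, and 4 without NFAT5 KO 678_6, NFAT5 KO 679_6 or WT 679_5. Cd69 and Tnfaip3 passed in all 10 such fits, Nr4a1 in 7, Myc in 5, Tnfrsf9 in 4 and Nfkbia in 3. Cell cycle genes were lower in the same NFAT5 KO libraries, and their part in these lists was not tested. Within label prefix 678 alone 0 of 13747 tested genes passed, those of the 6 lists included.

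**Figure D4:**
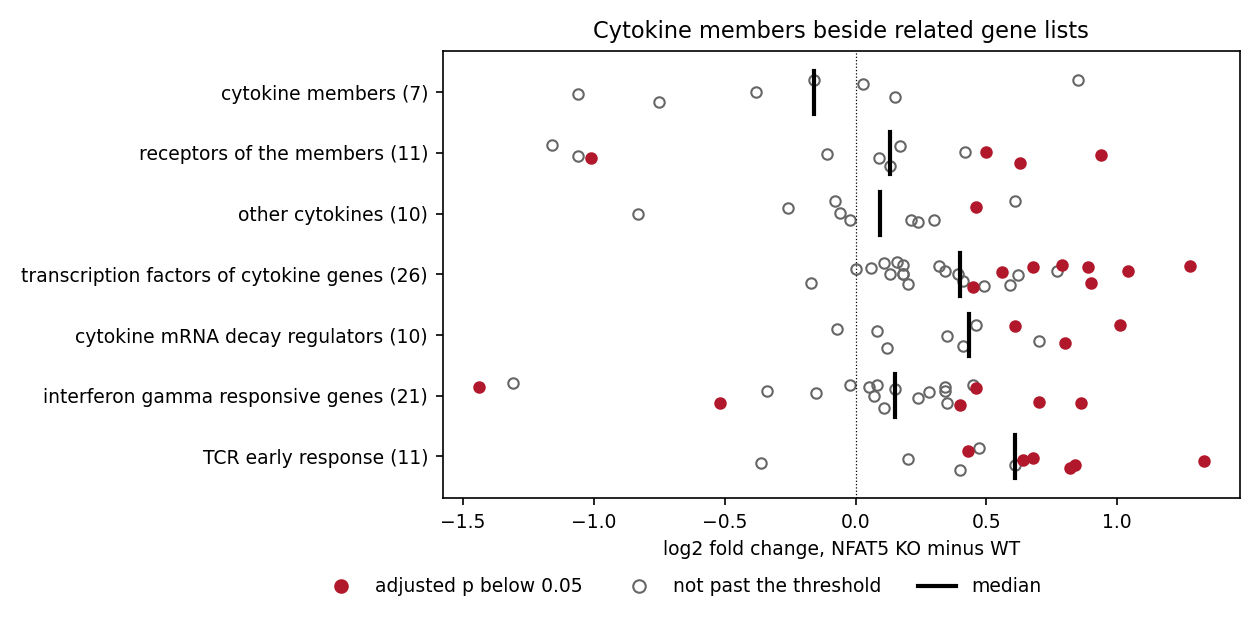
Log2 fold change, NFAT5 KO minus WT, of the 7 tested cytokine genes and of the tested genes of 6 related lists (number in parentheses). Red points have an adjusted p below 0.05, open points do not, and black bars give the median. No cytokine gene of the top row is red. To the right of 0, 8 transcription factors, 3 decay regulators and 6 early response genes are red. So are 3 receptors, 4 interferon gamma responsive genes and 1 other cytokine. To the left of 0, 1 receptor and 2 interferon gamma responsive genes are red.

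The genes whose log2 CPM followed each cytokine most closely over the 10 libraries were looked up among 8495 well-expressed genes, as a description of libraries that share depth and composition. For Ifng they were Sel1l (Pearson r = 0.902), BC037034 (0.892) and Mrpl21 (0.888). For Il16 they were Def6 (0.944), Mindy2 (0.929) and Inpp1 (0.922), and for Csf1 Rtca (0.959), Dalrd3 (0.926) and Iqsec1 (0.917). For Il2 they were Gnpat (0.950), Tonsl (0.946) and Gnpda2 (0.934), and for Csf2 Unc50 (0.946), Hnrnpd (0.901) and Esf1 (0.895). For Il10 they were Cenpq (0.923), Mfge8 (0.870) and AW209491 (0.869). For Il3 they were Cd68 (0.913), Dgcr8 (0.878) and the pseudogene Gm10233 (0.867), whose counts are uncertain because it resembles other genes. Cd68, one of the macrophage markers, stood at 11.75 to 20.84 CPM in NFAT5 KO and 20.19 to 26.75 CPM in WT. Its r with Il3 was 0.933 after the genotype means were subtracted. For all genes named here r after that step ran from 0.850 (Gm10233 with Il3) to 0.950 (Rtca with Csf1). Each gene was picked for its high r among 8495 in the same libraries, so neither r is a test. The part of macrophages in the values of Il3 was not tested. The 4 genes Il2, Il3, Il10 and Csf2 have few counts, so their r values carry counting error.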

How the data were processed

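RNA of 5 NFAT5 KO and 5 WT libraries was analysed from 1 Salmon table per library. For 140919 transcripts the authors deposited estimated counts, which are not normalized and need not be whole, and TPM values, per the file headers. TPM is scaled for effective length and library total. The submitters' processing notes name Salmon 0.14.1, GRCm38.p6 and mm10. Annotation release, strand setting and read trimming: not given in the sources used here. Read overlap between antisense or similar genes is resolved by Salmon's model alone. By identifier, 99.38% of transcripts matched GENCODE M21. The rest held at most 0.228% of a library's estimated counts.

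Gene sums of these estimated counts, rounded to whole numbers, were filtered (filterByExpr), scaled (TMM) and tested with the robust edgeR 4.0.16 quasi-likelihood test in R 4.3.3 over all 10 libraries without covariates. Benjamini-Hochberg adjustment ran over all 13081 tested genes, with a threshold of 0.05. Intervals are the log2 fold change plus or minus the t quantile times the SE. CPM uses TMM-scaled totals. The biological coefficient of variation was 35.7%. Every pair of libraries differed by more than sampling noise. The fit was checked on simulated counts. Shares of the most abundant transcript were tested for member genes with more than a single transcript and at least 20 estimated counts per library on average, summed over transcripts. These shares and Il21 were compared by two-sided exact permutation over 252 arrangements.

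The members, the 6 related gene lists and the cell type markers were chosen with earlier results of these data known. Named were all 8 members, from each list up to 6 genes past the threshold with the smallest p, and for each tested member the 3 genes with the highest r among genes of a mean log2 CPM of at least 3. Other list genes were named after their values were seen. Some list genes are not reported here, and the counts and sums over lists include them. Other settings tried were scaling by DESeq2 1.42.0 or by library size only, a filter asking for 5 CPM in 5 or more libraries or none, an offset for transcript length, the label prefix as a block or each prefix alone, the Wald test of DESeq2, limma 3.58.1 (voom, quality weights), and 1 library left out at a time.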

Additional observations from a re-analysis of the deposited data

Results flagged for a closer look

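Among 22 groups of 5 libraries looked at for a library far from the others, 1 stood out, about what chance gives at 1 in 20. It was Il21 in WT 679_5, at 0.788 CPM, while the other WT libraries lay between 0 and 0.202 CPM. That library had 18 estimated counts of the gene.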

How the results depend on the processing

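The number of the 8 cytokine genes past the threshold was 0 in every alternative run. The number of all genes past it moved to 1893 with the DESeq2 Wald test, to 325 within label prefix 679 and to 0 within prefix 678 (1449 at an unadjusted p below 0.05). It ran from 696 (without WT 678_2) to 1276 when 1 library was left out. The log2 fold change of Ifng, 0.03, changed sign with library size alone (-0.013), within prefix 678 (-0.032) and among the fits without 1 library (-0.047 to 0.059). That of Il10, 0.15, was -1.26 within prefix 679, -1.07 with limma-voom and -1.38 to 0.769 without 1 library. That of Il16, -0.16, was 0.142 within prefix 678. Without 1 library the CPM difference of Il21 ran from -0.014 to 0.243, and the difference in the share of Ifng-201 from -0.77 to 0.40 percentage points. Il2, Il3, Csf1 and Csf2 kept their sign in every fit that held them, with adjusted p from 0.198 to 0.942 for Il2, 0.382 to 0.894 for Il3, 0.0557 to 0.714 for Csf1 and 0.259 to 0.921 for Csf2. The cause of these changes was not tested.

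No paired analysis was possible because the library numbers are not shared by the genotypes within a label prefix. With the prefix as a block 976 genes passed, none of the 8 among them. The filter at 5 CPM held only Ifng, Il16 and Csf1, and Il10 had no value within prefix 678. Il2, Il3, Il10, Il21 and Csf2 have 0 to 80 estimated counts in a library, and counting error and spread between libraries were not separated for them.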
